A study of Mus musculus with 4 samples.

Results

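The data described here were the 2 peak lists for H3K27me3 among 4 deposited ChIP-seq peak lists, 1 from a library titled untreated (untr) and 1 from a library titled DOX. Peaks on chromosomes 1 to 19 were taken, 6216 from the untr list and 7071 from the DOX list, and peaks that overlapped by at least 1 bp were merged into 9093 regions, of 31743 regions that the 4 lists formed when merged together. Each region was classed by the list or lists that held a peak in it.

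All 4 libraries came from mouse ESCs carrying a Tet-on dominant-negative FOS (dnFOS), which doxycycline induces and which keeps JUN-related proteins off chromatin, differentiated for 2 days to floating haematopoietic progenitors. The other 2 libraries were ChIP for RUNX1, a transcription factor that blood cell formation requires. The label of treatment went against the title in both H3K27me3 libraries, since the library titled untr was labelled Doxycycline and the library titled DOX was labelled None. The libraries are therefore named by title alone, with 1 library a side, and no value below measures an effect of doxycycline. The antibody label read H3K27me3, whereas the extraction text shared by all 4 libraries named an anti-RUNX1 antibody and a double crosslink with DSG and formaldehyde. The labels named no clone and no repeat culture. Doxycycline, sequencing run, fragment length and depth cannot be told apart between the 2 libraries.

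H3K27me3 is trimethylation of lysine 27 on histone H3, laid down by Polycomb repressive complex 2 through its catalytic subunit EZH2 or EZH1. In stem cells and progenitors it gathers at CpG islands, stretches of DNA rich in CG dinucleotides that often hold promoters, of silent developmental regulators such as the Hox genes. Islands of broadly active genes usually lack it, and loss of the mark from a lineage's own regulators accompanies their activation.

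The sequences under the summits, where fragments were most numerous, showed the kinds of DNA that the lists held. Each is 160 bp of the plus strand of mm10 (GRCm38) with CG dinucleotides in capitals. The first is from a region in both lists, at chr14:63943388-63943547, where the summit lay -205 bp from the start of Sox7, an endothelial and blood-lineage HMG-box factor (negative distances are upstream). The second, at chr19:46147749-46147908, is from a region in the untr list only, 497 bp from the start of Pitx3, a homeobox factor of lens and midbrain. The third, at chr5:106458529-106458688, is from a region in the DOX list only, -443 bp from the start of Barhl2, a homeobox factor of the nervous system. They were chosen by strength among the island regions of their class near a homeobox, Fox, Sox, T-box or bHLH gene of the lists used below, leaving out windows that touched an exon, so stronger regions at such genes exist. The class is that of the region, and Pitx3 and Barhl2 each had peaks of both libraries within 1500 bp of a start. The strongest of these stood at percentiles of 84.0 in untr and 51.2 in DOX for Pitx3, and 56.3 and 78.8 for Barhl2.

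Sox7, both lists: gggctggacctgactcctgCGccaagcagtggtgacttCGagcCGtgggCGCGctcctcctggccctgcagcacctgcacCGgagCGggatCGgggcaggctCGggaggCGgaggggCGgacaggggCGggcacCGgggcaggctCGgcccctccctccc
Pitx3, untr only: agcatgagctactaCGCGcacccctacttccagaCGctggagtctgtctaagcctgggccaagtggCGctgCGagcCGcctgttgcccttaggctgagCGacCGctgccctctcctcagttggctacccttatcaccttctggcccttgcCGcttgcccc
Barhl2, DOX only: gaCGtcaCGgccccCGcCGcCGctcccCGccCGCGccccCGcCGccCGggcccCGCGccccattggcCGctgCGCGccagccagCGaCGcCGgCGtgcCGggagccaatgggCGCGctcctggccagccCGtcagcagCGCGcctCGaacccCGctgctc

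The stretches held 14, 9 and 28 CG dinucleotides and had GC contents of 76.2%, 63.1% and 83.1%. The strongest regions of a class, without regard to genes, looked different. The strongest in both lists was at chr6:103649115-103649274, in an intron -48555 bp from the start of Chl1, and the strongest in the untr list only was at chr7:31971809-31971968, a run of alternating A and T.

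Strongest in both lists: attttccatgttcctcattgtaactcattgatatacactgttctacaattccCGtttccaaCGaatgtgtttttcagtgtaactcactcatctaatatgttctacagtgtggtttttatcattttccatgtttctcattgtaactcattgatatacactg
Strongest in untr only: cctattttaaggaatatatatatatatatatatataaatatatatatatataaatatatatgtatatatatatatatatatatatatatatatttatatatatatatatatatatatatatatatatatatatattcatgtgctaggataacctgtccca

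These stretches held 2 and 0 CG dinucleotides, with GC contents of 33.1% and 10.6%. The first overlapped a RUNX1 peak and the second did not.

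Of the 9093 regions, 3549 (39.0%, 95% Wilson interval 38.03 to 40.04) were in both lists, 2504 (27.5%) were in the untr list only and 3040 (33.4%) were in the DOX list only. Regions in both lists were 58.6% of the regions of the untr list and 53.9% of those of the DOX list. All intervals given are counting error over regions or genes and do not hold the spread between cultures, which 1 library a side cannot give. Many regions of a single list lay close to a peak of the other. A DOX peak lay within 1000 bp of 43.4% of the untr-only regions (41.5 to 45.4), and an untr peak within 1000 bp of 33.9% of the DOX-only regions (32.3 to 35.6). When peaks up to 1000 bp apart were merged, 3229, 1246 and 1896 regions remained in both, untr only and DOX only.

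CpG islands marked the 3 classes to different degrees. An island overlapped 69.3% of the regions in both lists (67.7 to 70.8), 56.8% of the untr-only regions (54.9 to 58.8) and 30.1% of the DOX-only regions (28.5 to 31.8). Islands, found here as CG-dense stretches of at least 200 bp outside soft-masked repeats, numbered 15685 and covered 0.421% of chromosomes 1 to 19. With windows of 200 bp to each side of the summits in place of the peaks, the order was the same, at 71.3%, 53.8% and 26.1%. With strong peaks alone it changed. Among the 3000 strongest peaks of each list, an island overlapped 70.9% of the untr-only regions, 58.2% of the regions in both and 38.6% of the DOX-only regions.

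Transcription starts gave a similar picture. The strongest summit lay within 1500 bp of an annotated start in 69.1% of the regions in both lists (67.5 to 70.6), 67.1% of the untr-only regions (65.3 to 68.9) and 46.7% of the DOX-only regions (44.9 to 48.5), against 8.71% of all positions on these chromosomes. The first 2 intervals overlap, and the third lies below them. Within 1500 bp of a start, the summit lay downstream in 68.4%, 66.1% and 64.3% of the regions of the 3 classes, and the most populated 250 bp was the first downstream of the start, with 31.7%, 25.5% and 24.6%. Neither an island nor a start was found in 20.9% of the regions in both, 23.1% of the untr-only regions and 48.9% of the DOX-only regions. The median 200 bp summit window had a GC content of 69.5%, 64.0% and 55.5% and held 18, 13 and 5 CG dinucleotides in both, untr only and DOX only.

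**Figure D1:**
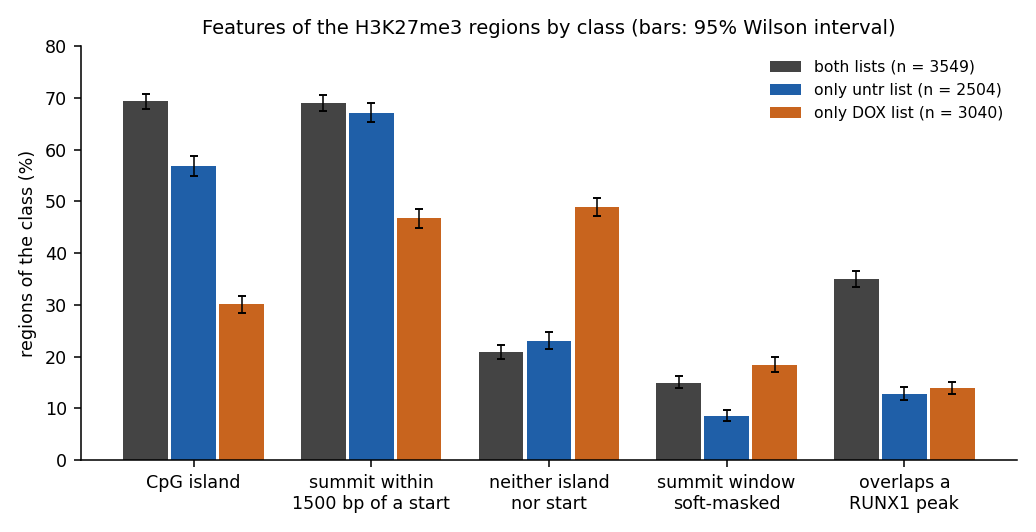
Percentage of regions (y axis) with each feature (x axis) for the 3549 regions in both lists, the 2504 in the untr list only and the 3040 in the DOX list only, with 95% Wilson intervals. Islands were found in 69.3%, 56.8% and 30.1%, and neither island nor start in 20.9%, 23.1% and 48.9%.

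Regions in a single list were weak. Strength is given as the percentile of a peak's -log10 q within its own list, since q depends on depth. The median was 67.3 in the untr list (quartiles 42.9 and 84.9) and 68.6 in the DOX list (43.4 and 86.0) for regions in both lists, 30.3 for untr-only regions (14.2 and 49.7) and 32.4 for DOX-only regions. Regions in both lists had a median width of 312 bp, untr-only regions 138 bp and DOX-only regions 89 bp. The shortest peak a list could hold was the caller's fragment length, 101 bp for untr and 74 bp for DOX, so widths of the 2 lists are on different scales. Summit pile-ups were small, with a median of 19 fragments in the untr list and 17 in the DOX list.

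The share of regions found in both lists rose with strength in each library. It was 25.9% in the weakest decile of untr regions and 96.4% in the strongest (94.7 to 97.6). In the DOX list it was 18.5% in the weakest decile and 94.7% in the strongest (92.7 to 96.1). Islands did not follow. In the untr list, 60.6% to 76.8% of the regions in each of the 9 weaker deciles overlapped an island, but 28.3% of the strongest decile did (24.9 to 32.0). In the DOX list the share climbed from 38.5% in the weakest decile to 65.8% in decile 8 and was 21.01% in the strongest decile (18.1 to 24.2).

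The strongest decile also stood out by RUNX1 peaks and repeats. A peak of either RUNX1 list overlapped 73.0% of it in the untr list and 78.4% in the DOX list, against 12.3% and 8.12% of the weakest decile. The summit window was at least 50% soft-masked in 50.2% and 50.5% of it, against 2.99% and 7.96%. All 63 regions of the strongest 1% of the untr list and all 72 of the DOX list overlapped a RUNX1 peak. The part of RUNX1 binding, the antibody or repeated sequence in these pile-ups was not tested.

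**Figure D2:**
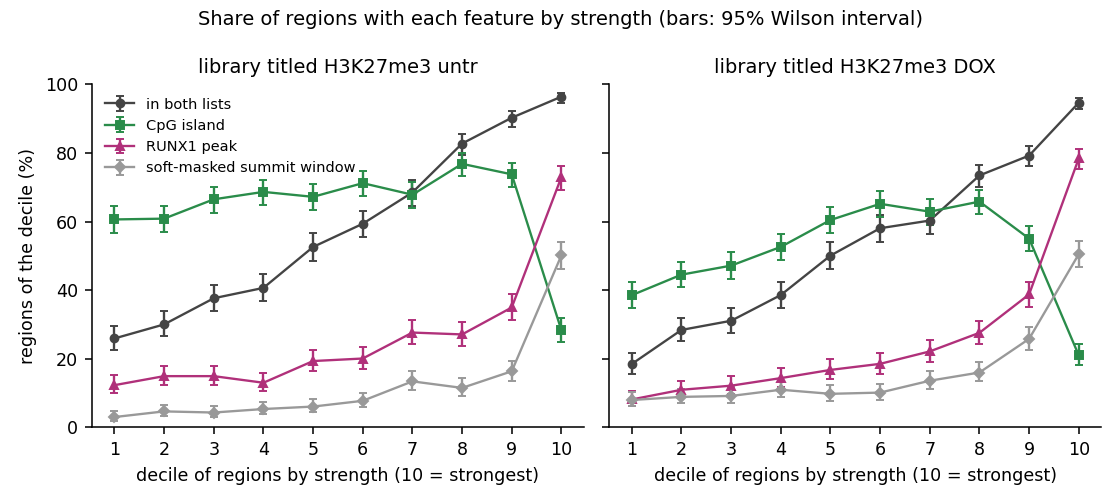
Percentage of regions (y axis) in each decile of strength within its own list (x axis, 10 strongest) that were in both lists, overlapped a CpG island, overlapped a RUNX1 peak or had a soft-masked summit window, with 95% Wilson intervals. Islands drop to 28.3% and 21.01% in the strongest decile, where RUNX1 overlap reaches 73.0% and 78.4%.

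Regions in both lists split accordingly. Of the 2459 with an island, 22.7% overlapped a RUNX1 peak (21.04 to 24.35), and of the 743 with neither island nor start, 74.0% did (70.8 to 77.0). The RUNX1 peaks in the latter were strong, with a median percentile of 87.2 in the stronger RUNX1 list, compared with 40.4 at the island regions. In regions of a single list with neither island nor start, the overlap was 11.2% for untr only and 15.2% for DOX only. Conversely, 7.498% of the 24672 RUNX1 regions overlapped an H3K27me3 region. Without peaks under a RUNX1 peak, islands were found in 82.6%, 55.3% and 32.1% of the regions in both, untr only and DOX only, so the order of the classes held.

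The background that the peak caller had set against each peak could be recovered from its fold and p, and gave a second measure, the mean level over 10 kb around the summit relative to the library's genome-wide background. The caller took the larger of the 2, so the lowest value is 1. The median was 2.29 in the untr library and 1.798 in the DOX library for regions in both lists, 1.77 for untr-only regions and 1.25 for DOX-only regions, of which 36.1% (34.4 to 37.8) sat at the genome background. Since -log10 q compares a summit with its own 10 kb, the same number of fragments ranked differently on different levels. Gata4, an endoderm and heart zinc-finger factor, had 24 fragments on a 10 kb level of 6.29 in the untr library and a percentile of 2.99, and 28 fragments on a level of 4.55 in the DOX library and a percentile of 53.1. Csf2ra, the GM-CSF receptor alpha chain, had 34 and 51 fragments at the genome background and percentiles of 95.5 and 97.7.

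**Figure D3:**
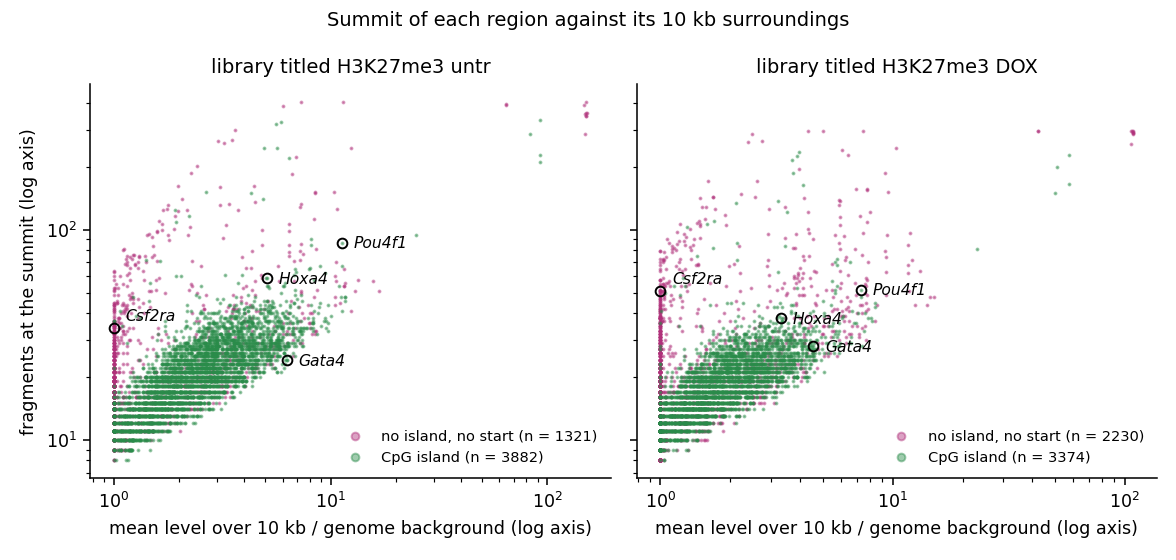
Fragments at the strongest summit of each region (y axis, log) against the mean level over the surrounding 10 kb relative to the genome background (x axis, log), for regions with a CpG island and regions with neither island nor start in each library. Island regions rise along a band of raised 10 kb level (Gata4 at 6.29 and 4.55), and regions with neither include tall summits on the background line at 1. Csf2ra, a region at a start, is circled on that line.

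The 10 kb levels of the 2 libraries ran close together. Among regions in both lists, summits were a median of 51 bp apart, and 2430 pairs had summits within 100 bp. Over those pairs the Spearman correlation of the 10 kb level was 0.971, and over all 3549 regions that of the percentile was 0.666. Both are descriptions, since the pairs share genome sequence and mappability and single domains give several pairs. The level was higher in the untr library in 87.4% of the 2430 pairs, with a median DOX to untr ratio of 0.813. At islands it was higher in untr in 97.3% of 1432 pairs with a median ratio of 0.759 (quartiles 0.705 and 0.832), and with neither island nor start in 66.9% of 701 pairs (63.3 to 70.3). The median ratio of the latter, 1, is bound by the floor of the measure, since many of these regions sat at or near the background. The genome-wide background is a mean over all reads and so tracks depth. It was 12.9 reads per kb in the untr library and 20.3 in the DOX library. That is 1.58 times as many, if both were called with the same genome size.

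Of the 16 gene lists examined, the 6 of developmental genes had the highest shares of genes under peaks of both libraries. The lists were drawn from textbook knowledge of Polycomb repressive complex 2 targets and of the cell type. High shares in the developmental lists were therefore foreseen and are a description, not a test. A gene counted for both when each library had a peak within 1500 bp of any of its starts. Unlike for regions, the 2 peaks need not overlap, as at Hoxb3, Hoxc5 and Fgf12, and 1 peak can count for several genes. Among protein-coding genes on chromosomes 1 to 19, 12.3% had an untr peak within 1500 bp of a start, 11.6% a DOX peak and 9.92% both. With a CpG island at a start, the figures were 18.6%, 17.5% and 15.4%. In 6 lists of developmental genes, 317 genes in all, 58.0% had a peak of both libraries (52.5 to 63.3).

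Homeobox factors outside the Hox clusters, which pattern the nervous system and other organs, were covered in both libraries, with 77 of 108 genes under an untr peak, 82 under a DOX peak and 73 under both. Pou4f1, a sensory neuron factor, had 87 fragments in the untr library and 52 in the DOX library, with percentiles of 95.7 and 90.04 and 10 kb levels of 11.3 and 7.32. Pou3f3, a brain POU factor, stood at percentiles of 95.2 and 79.1. Lhx2, a LIM factor of forebrain and eye, reached 91.8 and 93.7, and Onecut3 reached 91.3 and 92.4. Otx2, a forebrain factor, had a DOX peak only, at percentile 76.3, and Dlx2, a forebrain and jaw factor, an untr peak only, at percentile 43.3.

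Of 74 Fox, Sox and T-box genes, 47 had an untr peak, 39 a DOX peak and 37 both. Sox7 had 54 fragments in the untr library and 40 in the DOX library over 10 kb levels of 6.04 and 4.40. Tbx18 stood at percentiles of 91.2 and 73.6, Foxi3 at 91.1 and 79.3, and Foxe1, a thyroid factor, at 90.9 and 89.97. All 5 autosomal GATA genes had a DOX peak and 3 an untr peak. Gata5 stood at percentiles of 71.8 and 80.1 and Gata6, an endoderm factor, at 82.7 and 74.7. Gata3, a T cell and neural factor, had a DOX peak only, at percentile 32.2. Of 30 bHLH regulators of nerve and muscle, 16 were under peaks of both, among them Hand2 at percentiles of 89.2 and 63.4, Neurog2 at 86.1 and 61.5, Olig1 at 39.4 and 79.5 and Twist1 at 74.95 and 78.7.

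Among 61 WNT, BMP, FGF and hedgehog ligands, which carry signals between embryonic cells, 41 had an untr peak and 37 a DOX peak, each of the latter with an untr peak as well. Wnt9b stood at percentiles of 93.3 and 89.6, Wnt5b at 93.2 and 73.9, Wnt4 at 92.0 and 84.8 and Wnt9a at 92.0 and 91.0. Dhh, Wnt16, Bmp4 and Gdf11 had an untr peak only, none above percentile 34.3.

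**Figure D4:**
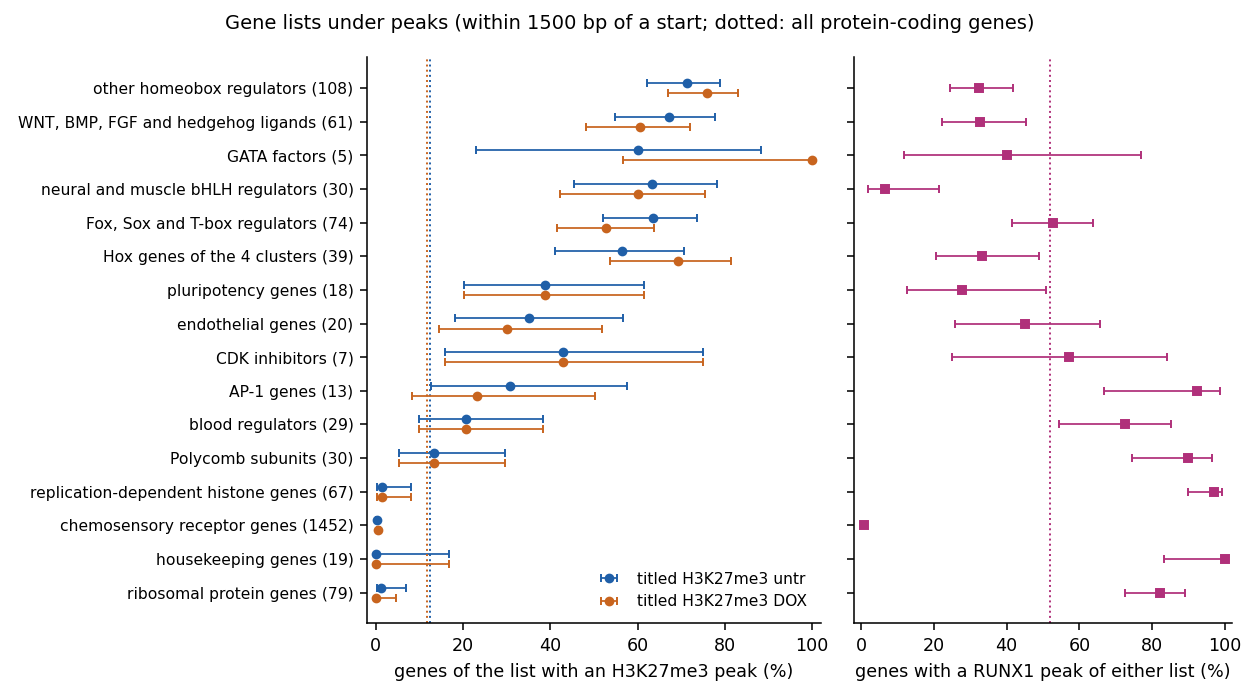
Percentage of the genes of each list (rows, with the number of genes) that have a peak within 1500 bp of a start, for the 2 H3K27me3 libraries on the left and for either RUNX1 list on the right, with 95% Wilson intervals and all protein-coding genes as dotted lines. The 6 developmental lists stand far above the H3K27me3 line (12.3% and 11.6%), while all 19 housekeeping genes have a RUNX1 peak and no H3K27me3 peak.

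The Hox genes, which set position along the body axis, were covered in each of the 4 clusters. Of 39 genes, 22 had an untr peak, 27 a DOX peak, 18 both and 8 neither. The median 10 kb level at their peaks was 4.78 in the untr library and 3.13 in the DOX library, the highest of the 16 lists in untr. Hoxa4 stood highest, with 59 and 38 fragments and percentiles of 95.4 and 91.6. Hoxc13 followed with 48 and 32 fragments and percentiles of 93.4 and 85.3. Hoxd1, at one end of its cluster, stood at 89.1 and 73.5 over 10 kb levels of 1.87 and 1.47, the lowest of these, and Hoxa13 stood at 85.8 and 87.2.

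The called peaks were short islets and did not tile the clusters. Since the caller set each summit against its own 10 kb, gaps between peaks do not show stretches without the mark. Hoxc6, for example, had 22 fragments over a 10 kb level of 5.35 in the untr library and stood at percentile 3.76. Hoxa held 17 regions over 105 kb, 6 in both lists, and Hoxb 16 over 174 kb, 5 in both. Hoxc held 11 over 116 kb, 4 in both, and Hoxd 20 over 96.8 kb, 8 in both. Together they left 20 regions in the untr list only and 21 in the DOX list only. The 10 kb level at Hoxa regions lay between 3.90 and 7.31 in the untr library and between 2.34 and 4.74 in the DOX library. The lowest untr level was 2.64 in Hoxb, 4.15 in Hoxc and 1.87 in Hoxd, and the lowest DOX level 1.56, 2.89 and 1.06, the last near the genome background. Hoxa9 had a peak in DOX only, with 22 fragments over a level of 3.81, and Hoxa11 in untr only, with 29 fragments over 6.82. RUNX1 peaks overlapped 2 regions in Hoxa and 8 in Hoxd, and 0 in Hoxb and Hoxc.

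**Figure D5:**
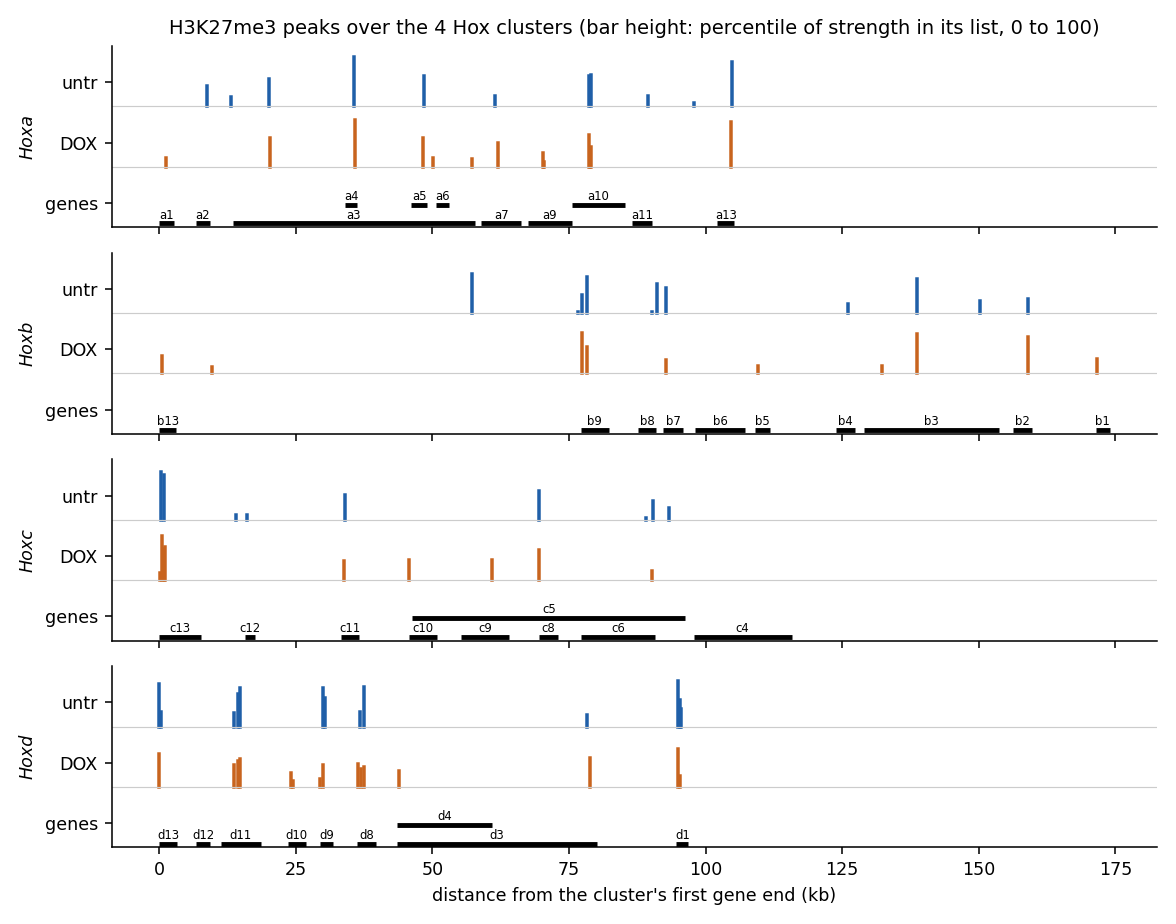
Peaks of the untr and DOX libraries (bars, height is the percentile of strength within the list, 0 to 100) along the 4 Hox clusters (x axis, kb from the end of the first gene), with gene spans below. The tallest bars over Hoxa4 stand at 95.4 and 91.6, and bars of both libraries coincide in 6, 5, 4 and 8 regions of Hoxa, Hoxb, Hoxc and Hoxd.

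Of 29 blood regulators, 6 had an untr peak (20.7%, 9.85 to 38.4), 6 a DOX peak and 5 both, shares whose interval holds that of all genes. RUNX1 peaks were frequent there. Of the 29, 21 had a RUNX1 peak, against 52.0% of all protein-coding genes. Csf2ra was the strongest. Cebpa, a driver of granulocyte fate, stood at percentiles of 91.3 and 92.4 with 39 and 36 fragments over 10 kb levels of 3.45 and 2.67. Cebpb, a related factor of macrophages, had 12 and 16 fragments over 1.16 and 1.12, and Irf8, a monocyte and dendritic cell factor, had 19 and 13 over 2.21 and 1.56. Gfi1, a repressor active in haematopoietic cells, had 24 and 18 fragments over 4.62 and 2.64. Gata2, a progenitor factor, had a DOX peak only, with 23 fragments and percentile 85.7, and Ikzf1, a lymphoid factor, an untr peak only, with 12 fragments and percentile 17.1. The remaining 22 had neither. Peaks held at least 8 fragments, and more were needed on a raised 10 kb level, so these genes are not shown to lack the mark.

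Endothelial genes, whose program the progenitors leave behind, gave 7 of 20 in untr and 6 in DOX. Beside Sox7 these were Dll4, a Notch ligand of arteries, at percentiles of 20.5 and 70.9 over 10 kb levels of 5.65 and 4.10, Flt1, a VEGF receptor, at 67.1 and 59.6, Sox17 at 58.4 and 17.5, Sox18 at 53.5 and 36.2, and Notch1 at 8.26 and 44.9. Efnb2, an arterial ephrin, had an untr peak only, with 11 fragments, and the other 13 endothelial genes had neither. The untr share of 35.0% (18.1 to 56.7) compares with 12.3% of all protein-coding genes and 18.6% of those with an island at a start, and its interval holds the latter. Sox7, Sox17 and Sox18, and Sox2 among the pluripotency genes, also count in the Fox, Sox and T-box list. Pluripotency genes gave 7 of 18 in each library (38.9%, 20.3 to 61.4), against the same 12.3% and 18.6% for untr, and 10 had neither. Sox2 stood at 88.9 and 88.75 and Esrrb at 87.8 and 89.2, with Klf2 at 78.1 and 84.7, Utf1 at 76.5 and 26.7, Klf4 at 37.2 and 6.84, and Tdgf1 at 19.5 and 13.4. Nanog had a DOX peak only, with 13 fragments, and Pou5f1 an untr peak only, with 14.

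AP-1 genes, the family that dnFOS blocks, had a RUNX1 peak in 12 of 13, against 52.0% of all genes, and an H3K27me3 peak in 4. An island lay at a start of 12 of the 13. Other lists rich in islands also had high RUNX1 shares, such as 27 of 30 Polycomb subunits and 19 of 19 housekeeping genes. For H3K27me3, the AP-1 share in untr of 30.8% has an interval of 12.7 to 57.6, which holds the 18.6% of genes with an island at a start. Jdp2, which encodes a repressive JUN partner, stood at percentiles of 84.99 and 63.3, Fosl1 at 36.4 and 79.5, and Batf3, a dendritic cell factor, at 46.3 and 57.0. Fos had an untr peak only, with 14 fragments and percentile 16.3. Of 7 CDK inhibitors, Cdkn1c had 44 and 29 fragments over 10 kb levels of 4.71 and 3.11, and Cdkn1a had 10 and 11 fragments at the background. Cdkn2a, a classic Polycomb target, had a DOX peak only, with 12 fragments, and Cdkn2c an untr peak only, with 15. Of 30 Polycomb subunits, 4 had a peak of both libraries, Bmi1 at percentiles of 92.2 and 82.3, Epop at 75.3 and 78.7, Phf19 at 23.6 and 73.6 and Cbx7 at 22.8 and 15.6, a share of 13.3% that is near that of all genes.

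Genes that every cell uses were almost free of peaks. Among 79 ribosomal protein genes 1 had an untr peak, Rps29, with 18 fragments at the background level, and 0 had a DOX peak, while 65 had a RUNX1 peak. None of the 19 housekeeping genes had a peak of either H3K27me3 library, and all 19 had a RUNX1 peak. Over both lists, 0 of 98 genes had a peak of both libraries, which leaves an upper Wilson bound of 3.77%. Of 67 replication-dependent histone genes, Hist3h2ba had peaks of both, and 65 had a RUNX1 peak. Chemosensory receptor genes, nearly all without islands, had an untr peak in 3 of 1452 and a DOX peak in 7.

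The strongest 10 regions of each class carried few of these genes. In both lists, all 10 overlapped a RUNX1 peak, 3 had an island and their percentiles were at least 99.8. Their nearest protein-coding genes were Chl1, 2210408I21Rik, Rab10, Rpusd4, Filip1l, Zc3h7a, Dpy19l1, Cdk5rap2, Gm8797 and Hic2. The Filip1l region, in an intron, was an island with 325 and 234 fragments. In untr only, all 10 were at least 50% soft-masked, 8 sat at the genome background, 0 overlapped a RUNX1 peak and 0 an island, with Scgb1b10, Vmn2r41, Esp24, Grik2, Tbc1d2b, Fat3, Nrg3, Kcnd2, Snx19 and Dyrk2 nearest. In DOX only, 7 were soft-masked, 5 overlapped a RUNX1 peak and 0 an island, with Gm8237, Samd9l, Dpys, Tmem267, Frmd4a, Ntng1, Gm17535, Olfr161, Gm31371 and Nalcn nearest.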

How the data were processed

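Floating haematopoietic progenitors from dnFOS ESCs were assayed by ChIP-seq, with 2 H3K27me3 and 2 RUNX1 libraries, 1 for each title. Per the submitters' processing notes, Bowtie2 2.2.9, MACS2 2.1.1 and mm10 were used. The study's methods describe RUNX1 ChIP, and steps for H3K27me3 are not given in the sources used here. The deposited peak lists hold a fold enrichment (a ratio), a -log10 p and a -log10 q for each peak, all made by the authors' peak caller, with a lowest -log10 q of 1.42 (untr) and 1.31 (DOX). There was 1 column set per sample and no counts, so total depth is unknown.

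Fragments at a summit (X) and local background (L) were recovered as the whole X for which fold = (X + 1)/(L + 1) gave the deposited p within 0.01, which held for 100% of peaks. L times 10000 over the shortest peak width was whole within 0.1 in 100% of 5488 and 5410 peaks, and in at most 49.4% at other lengths, as for reads of the same library over 10000 bp and no input control. The highest pile-up in every list was 4 times that width (7 untr and 28 DOX peaks reached it), so the tallest summits are capped.

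Islands were found on the mm10 sequence by scoring CG dinucleotides 17 and other bases -1, keeping stretches of at least 200 bp, over 50% GC and over 0.6 observed to expected CG. Starts came from GENCODE M21. A summit window is 200 bp and is called soft-masked at 50% or more. Python 3.11.15, numpy 2.4.6, pandas 2.3.3, scipy 1.17.1, numba 0.67.0 and matplotlib 3.10.9 were used, and the recovery, classing and island steps were tested on simulated data. With 1 library a side no test was run. Shares have 95% Wilson intervals. The text names the genes nearest the 10 strongest regions of each class and, from 16 gene lists, every member with a peak in lists of up to 20 genes and the 4 strongest in longer lists; other members named were chosen after their values were seen. Regions, classes and lists were chosen with earlier results of these data known.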

Additional observations from a re-analysis of the deposited data

Results flagged for a closer look

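Peaks outside chromosomes 1 to 19 entered none of the counts above. On chromosomes X and Y the untr list held 140 peaks and the DOX list 162. On unplaced sequences and the mitochondrial genome they held 211 and 300. The source of these peaks was not tested, and no control library was among the files used.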

How the results depend on the processing

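Of 98 values under 15 alternative settings, 39 stayed within the main value's 95% interval, within 1.5 times the main count or, for medians, within a semi-interquartile range over regions, and 59 did not. Values are percentages of regions, in the order both, untr only and DOX only unless named. With summits extended by 200 bp, islands were found in 71.3%, 53.8% and 26.1%, and starts in 60.6% (untr only) and 39.4% (DOX only). With peaks up to 1000 bp apart merged, 1246 untr-only and 1896 DOX-only regions remained, with islands in 72.8%, 47.1% and 15.6% and starts in 50.8% (untr only) and 28.5% (DOX only). At a -log10 q of at least 5, 2309 regions were in both and 1316 in DOX only, islands were in 63.5%, 66.3% and 34.8%, and starts in 64.1% (both) and 69.7% (untr only). With the 3000 strongest peaks of each list there were 1788, 1169 and 1107 regions, islands in 58.2%, 70.9% and 38.6% and starts in 59.8%, 69.5% and 51.0%. Without soft-masked summits, islands were in 81.6%, 61.7% and 36.8% and starts in 77.8%, 72.1% and 54.1%. Islands were in 59.4% (untr only) and 32.3% (DOX only) with soft-masked bases kept, and in 56.2%, 41.6% and 22.8% at a minimum of 500 bp. Starts were in 51.9%, 46.1% and 29.8% within 500 bp, in 78.2%, 78.6% and 60.0% within 5000 bp, and in 63.6%, 61.4% and 39.5% with protein-coding genes alone. Without peaks under a RUNX1 peak, an alternative chosen after seeing the data, 2316 regions were in both, islands were in 82.6% (both) and 32.1% (DOX only) and starts in 79.0% (both) and 48.8% (DOX only). The 6 developmental lists had peaks of both libraries in 46.4% of genes within 500 bp, 66.2% within 5000 bp and 38.2% at the higher q, against 8.43%, 11.4% and 6.49% of all protein-coding genes. DOX-only regions had the lowest island and start shares in every setting run. The regions in both had the highest except at the higher q and in the 3000 strongest peaks, for islands and starts, and within 5000 bp for starts, where untr only was higher; the cause was not tested. The island share of the strongest decile, the gene values and RUNX1 overlap were not recomputed under these settings.

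No paired analysis was possible because each title had 1 library, and for the same reason none was left out. Depth was recovered relative to the caller's genome size only. A pile-up under 8 fragments gave no peak in either list, and a raised 10 kb level called for more. A gene without a peak is therefore not shown to lack the mark. Narrow peaks break a broad mark into pieces, and the 2 lists' fragment lengths differ.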

Other observations

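Island length went with coverage. Peaks of both libraries lay over 6.88% of islands under 500 bp (6.31 to 7.49), 16.2% of those of 500 to under 1000 bp, 28.3% of those of 1000 to under 2000 bp and 50.7% of the 294 of at least 2000 bp (44.99 to 56.35). Islands under peaks of both had a median length of 798 bp, against 505 bp for islands under neither. Islands without an annotated start were covered about as often as islands with one, at 13.7% (12.7 to 14.7) and 14.6% (14.0 to 15.3). A longer island offers more bases to overlap, and the part of that in these shares was not tested.

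When regions up to 10 kb apart were joined, 5494 domains formed, 3060 of them with peaks of both libraries. A DOX peak lay in the same domain as 56.8% of the untr-only regions, and an untr peak in the same domain as 46.6% of the DOX-only regions. The domain with the most regions, 73, was the first 38.2 kb of mapped sequence on chromosome 9, with a median of 100% soft-masked bases. The next was at Sfi1 on chromosome 11, with 49 regions over 99.6 kb. Developmental loci among the 12 largest were Hoxd, with 13 regions, and Pax2, a kidney and eye factor, with 11 regions over 36.9 kb, 9 untr peaks and 4 DOX peaks. Another domain, at chr6:47651672-47686548, had Ezh2, which encodes the enzyme that lays down the mark, as its nearest gene. It held 10 regions over 34.9 kb, 8 untr peaks and 7 DOX peaks, 5 regions being in both. Ezh2 was not among the Polycomb subunits with a peak within 1500 bp of a start. Fcgr3, an Fc receptor gene of myeloid cells, lay in a domain of 14 regions, 12 in both. These loci were chosen after their values were seen.

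Among island regions at protein-coding starts in both lists, the highest 10 kb levels, also chosen after their values were seen, were those of Sfi1 (24.7 and 23.2 in untr and DOX), Egr3 (11.6 and 8.44), Pou4f1 (11.7 and 7.55), Pcdh8 (9.68 and 6.68) and Tbx1, a pharyngeal T-box factor (9.69 and 6.61). This Tbx1 region nonetheless ranked at percentiles of 20.6 and 16.3, while the strongest peaks near a Tbx1 start stood at 79.97 and 85.4.

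Of 386 tRNA genes, which are short and highly transcribed, 1 lay under a peak of both H3K27me3 libraries, near Fcgr3. The untr peaks covered 1591639 bp in all and the DOX peaks 1271294 bp. Genes this short would seldom meet so few bases wherever they lie, so the count does not show depletion. In the RUNX1 libraries, 73 (18.9%) lay under a peak of the one labelled Doxycycline and 67 (17.4%) under one of that labelled None. Those peaks covered more of the genome, 7976366 and 6717175 bp, so the counts are not comparable with those of H3K27me3. Enrichment of tRNA genes under RUNX1 peaks was not tested.

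Chromosomes differed in density. Regions numbered from 2.099 per Mb on chromosome 3 to 5.52 per Mb on chromosome 11, which also had the most islands, 10.99 per Mb. Chromosome 14 had 4.74 regions per Mb with 4.45 islands per Mb and the lowest share of regions in both lists (28.7%). It had the highest density of DOX-only regions, 1.94 per Mb. Its density of untr-only regions, 1.4411 per Mb, was next to the highest, 1.4417 on chromosome 11.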
